A study of Homo sapiens with 6 samples.

Results

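The constitutive proteasome subunits were described in IGROV-1 cells, an established human ovarian carcinoma line, from the array probes whose annotated gene symbol was PSMA, PSMB, PSMC, PSMD or PSME followed only by digits. The interferon-induced subunits PSMB8, PSMB9 and PSMB10 were left out. The rule found 54 probes of 36 genes among 48803 probes, which name 18852 genes. It used names only and no measured value, though members were chosen with earlier results of these data known. By particle these were 12 probes of the alpha ring, 8 of the beta ring, 9 of the base ATPases, 4 of the other base subunits, 10 of the lid, 5 of base assembly chaperones and 6 of activators. PSMA7, PSMC5, PSMD7 and PSMD13 were not analysed here. Total RNA was hybridised to 6 Illumina bead arrays of 1 colour, with 3 from cells given saline and 3 from cells given CpG-ODN at 10 µM for 24 h. No exposure time is given for the saline cells. The oligonucleotide, ODN1826, has a phosphorothioate backbone and carries unmethylated CpG motifs, the kind of DNA that Toll-like receptor 9 recognises. All samples came from this 1 cell line, and the labels do not say whether each array came from its own culture. The p-values therefore reflect the spread among these samples alone, and that spread may be technical.

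The proteasome degrades proteins that carry ubiquitin chains. Its core particle is a stack of alpha and beta rings, in which the alpha rings gate the entry and the catalytic beta subunits cut inside the chamber. A regulatory particle caps the core: its base unfolds substrates with a ring of ATPases, and its lid removes the ubiquitin. Activators of the PA28 and PA200 kinds can cap the core in place of the regulatory particle, and interferon is known to exchange the catalytic subunits for PSMB8, PSMB9 and PSMB10 and to induce PSME1 and PSME2.

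Between 17142 and 18790 probes were detected per array, which here means a detection p under 0.05. Within saline, arrays correlated with each other at 0.989 to 0.991 over the tested probes, and within CpG-ODN at 0.964 to 0.983. CpG-ODN arrays 1 and 2 stood apart: CpG-ODN 1 was the lowest of the 6 arrays for 28.1% of tested probes and CpG-ODN 2 for 26.8%, against 10.0% to 13.2% for the other arrays. Epithelial identity was present, with EPCAM, KRT8, KRT18, KRT19, PAX8 and CDH1 detected on all 6 arrays. MUC16 passed detection on 3 arrays of saline and 2 of CpG-ODN, and WT1 on 0 and 2. Of the leukocyte markers, PTPRC, CD3E and ITGAM were detected on 0 arrays and CD14 on all 6. PECAM1 and VWF were also detected on all 6 arrays, while COL1A2 and LUM were detected on 0. COL1A1 passed detection on 0 arrays of saline and 1 of CpG-ODN, and a probe of DCN on 2 and 1.

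The constitutive proteasome was expressed throughout and did not differ detectably between the groups. Of the 54 probes 47 were detected on all 6 arrays, and they stood for 34 of the 36 genes. No probe passed the test: limma called 0 of 47 at a Benjamini-Hochberg adjusted p under 0.05 over all 17950 tested probes, of which 0% were called. At an unadjusted p under 0.05 there were also 0 member probes, against 3.58% of all tested probes (1.7% higher and 1.88% lower in CpG-ODN). The arrays of the groups did not overlap for 2 of the 47 members, against 9.35% of all tested probes. The mean was higher in CpG-ODN for 23 probes and lower for 24, where 51.9% of all tested probes had a lower mean. Their median fold change, in log2 units and as CpG-ODN minus saline, was −0.01, as was that of all tested probes. Every one of the 47 fold changes lay within 1.5-fold either way, from −0.36 to 0.28. For 47 of 47 members the 95% interval stayed inside 2-fold, against 93.6% of all tested probes and 99.2% of the 4488 brightest of them. It lay inside 1.5-fold for 31 members (66.0%), against 43.0% of all tested probes and 67.1% of those 4488. For the other 16 members the interval reached past 1.5-fold. Each member's adjusted p was 1.00. Fold changes between groups of bulk RNA cannot tell a change in RNA per cell from a change in the mix of cells.

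The split between higher and lower depended on the scaling. When arrays were instead scaled to equal medians, without quantile normalization, 42 members had a higher mean and 5 a lower one, with a median of 0.22, and limma again called 0. Under that scaling the median of all tested probes was 0.06 and that of the 4488 brightest was 0.19, with 85.4% of these higher. Among those brightest probes were 40 of the 47 members. On CpG-ODN 1 the median of all tested probes was then 0.34 above the saline mean, that of the 4488 brightest 0.51 and that of the members 0.53.

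**Figure D1:**
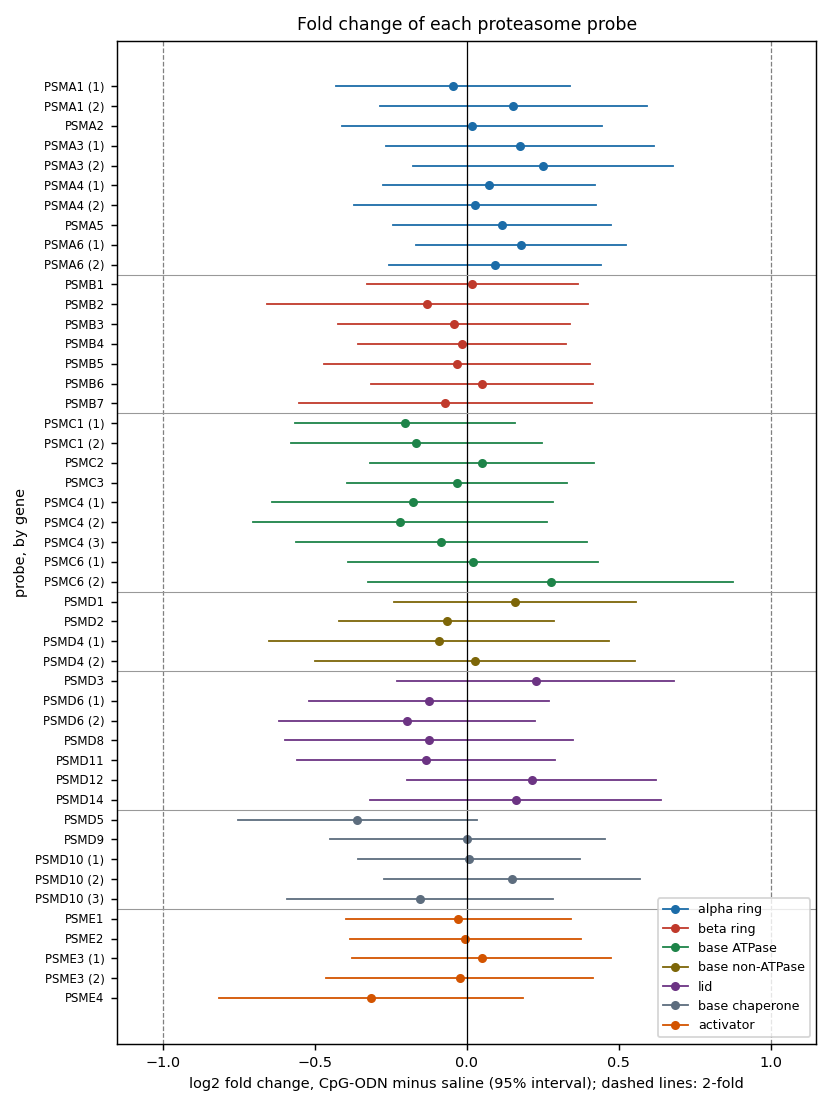
Log2 fold change of each of the 47 detected proteasome probes, CpG-ODN minus saline, with its 95% interval from limma (3 arrays in each group), coloured by particle. Each interval lies between the dashed lines at 2-fold, and the lowest value is that of PSMD5 at −0.36.

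Levels are given as normalized log2 intensities, which depend on how well each probe binds as well as on the transcript, so no probe is ranked against another. In saline the means of the alpha-ring probes ran from 10.29 to 13.90, those of the beta ring from 12.18 to 13.86 and those of the base ATPases from 8.71 to 13.98. The other base subunits ran from 10.68 to 11.90, the lid from 8.24 to 12.49, the chaperones from 7.85 to 11.78 and the activators from 10.49 to 12.84. In CpG-ODN the corresponding ranges were close to these, for example 10.31 to 13.99 in the alpha ring and 12.05 to 13.88 in the beta ring. The members without a detected probe were both tissue-restricted subunits: PSMA8, an alpha subunit of the testis, and PSMB11, the beta subunit of thymic cortical epithelium, were detected on 0 of 6 arrays. The other undetected probes belonged to genes that another probe did detect. These were 3 of the 4 probes of PSMD12 and 1 of the 3 probes of PSMA1, each on 0 arrays, and 1 of the probes of PSME1, seen on 1 saline and 1 CpG-ODN array.

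**Figure D2:**
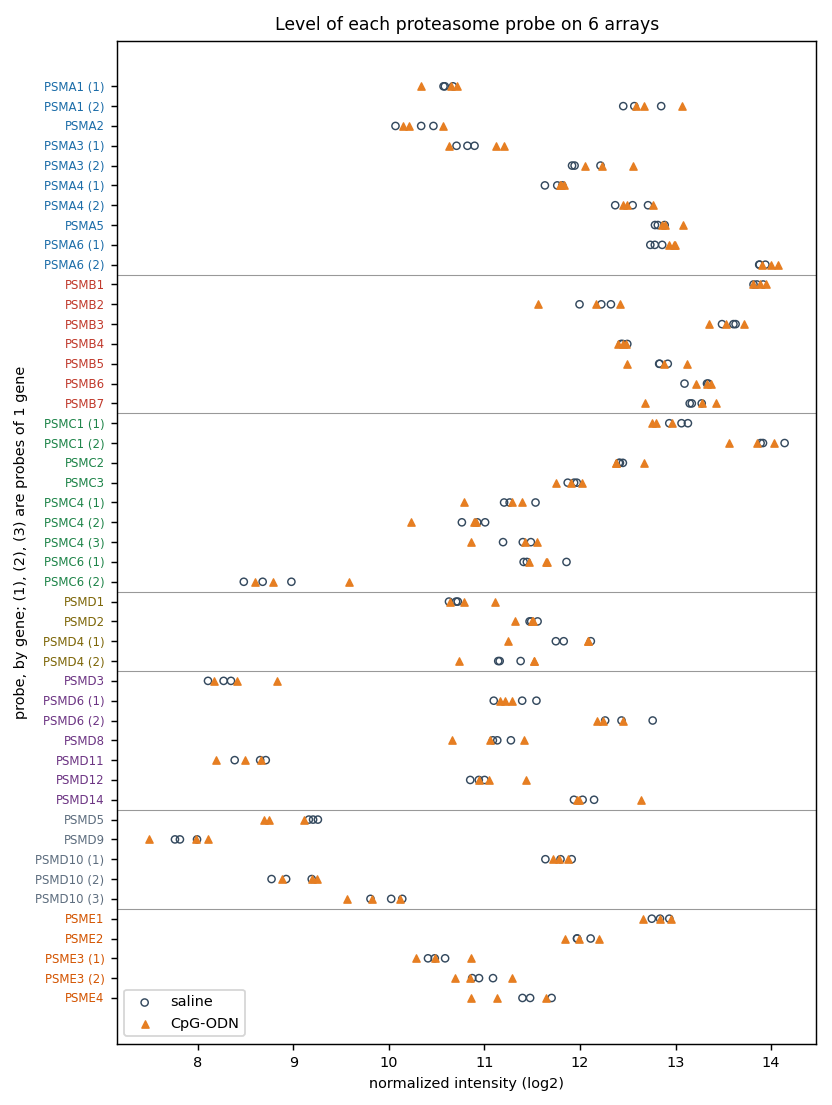
Normalized log2 intensity of each of the 47 detected proteasome probes on 3 saline arrays (open circles) and 3 CpG-ODN arrays (triangles), by gene and particle. For most probes the symbols of the groups overlap, and CpG-ODN triangles spread further apart than the saline circles.

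The alpha ring had a higher mean in CpG-ODN on 9 of its 10 tested probes, with a median fold change of 0.10 on the log2 scale and 0 called. These probes stand for 6 genes. Of all tested probes 51.9% had a lower mean, and of the 4488 brightest 53.25%, the background for the counts of each part below. PSMA6 was the only member probe whose CpG-ODN arrays all lay above its saline arrays. On that probe the log2 level was 12.86, 12.78 and 12.74 in saline and 12.99, 12.999 and 12.93 in CpG-ODN, each in the order of arrays 1, 2 and 3, as for all values that follow. The fold change was 0.18 ± 0.15 (SE, n = 3 arrays in each group; limma adjusted p = 1.00), with an interval from −0.17 to 0.52. All tested probes held 4.32% whose groups were apart in that direction, so 1 of 47 is no more than the background. Its other probe overlapped, with 13.94, 13.88 and 13.88 in saline and 14.07, 13.995 and 13.91 in CpG-ODN.

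PSMA3, another alpha subunit, had the smallest unadjusted p among the higher members (0.216 in limma). Its log2 level was 12.21, 11.94 and 11.92 in saline and 12.55, 12.23 and 12.05 in CpG-ODN, a fold change of 0.25 ± 0.19 (SE), with an interval from −0.18 to 0.68. It was 0.11 without CpG-ODN 1, and its other probe gave 0.18. The groups overlapped, since CpG-ODN 3 lay below saline 1. The remaining alpha subunits PSMA1, PSMA2, PSMA4 and PSMA5 lay between −0.05 and 0.15 over their 6 probes. PSMA1 had probes on both sides of 0, at −0.05 and 0.15. Without CpG-ODN 1 the alpha-ring median was 0.06, the lowest value with 1 array left out.

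The beta ring had a lower mean in CpG-ODN on 5 of 7 probes, with a median of −0.03 and 0 called. That median was near the −0.01 of all tested probes and of the 4488 brightest. The active sites lie in PSMB5, PSMB6 and PSMB7. PSMB5, the chymotrypsin-like subunit, had log2 levels of 12.83, 12.92 and 12.83 in saline and 12.49, 13.12 and 12.88 in CpG-ODN. The saline arrays lay close together, while CpG-ODN 1 was the lowest and CpG-ODN 2 the highest of the 6. The fold change was −0.03 ± 0.19 (SE), with a 95% interval from −0.47 to 0.40.

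PSMB7, the trypsin-like subunit, had the same order, at 13.17, 13.27 and 13.15 in saline and 12.68, 13.42 and 13.28 in CpG-ODN. Its fold change was −0.07 ± 0.21 (SE), with an interval from −0.55 to 0.41. PSMB6, the caspase-like subunit, lay at 13.09, 13.33 and 13.34 in saline and at 13.22, 13.33 and 13.37 in CpG-ODN. Saline 1 was the low array here, and the fold change was 0.05 ± 0.16 (SE), with an interval from −0.32 to 0.42. All 3 intervals lay inside 1.5-fold. The fold changes of PSMB5 and PSMB7 were −0.18 and −0.22 without CpG-ODN 2 and took the other sign without CpG-ODN 1, at 0.14 and 0.15, and the median of the beta ring then lay at 0.09.

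The structural beta subunits PSMB1, PSMB2, PSMB3 and PSMB4 lay between −0.13 and 0.02. PSMB4 was the steadiest, with 12.49, 12.45 and 12.43 in saline and 12.40, 12.45 and 12.48 in CpG-ODN. PSMB2 varied most, with 12.32, 12.22 and 11.99 in saline and 11.56, 12.42 and 12.17 in CpG-ODN. Its single low array was again CpG-ODN 1.

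Of the base ATPases, which unfold the substrate and open the gate of the core, 6 of 9 probes had a lower mean in CpG-ODN, with a median of −0.08 and 0 called. PSMC1 and PSMC4 were lower on each of their probes. PSMC1 lay at 13.06, 12.93 and 13.13 in saline and at 12.76, 12.79 and 12.96 in CpG-ODN, a fold change of −0.20 ± 0.16 (SE), with an interval from −0.57 to 0.16. Its other probe gave −0.17. The groups overlapped through CpG-ODN 3 alone.

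PSMC4 had probes at −0.22, −0.18 and −0.08. On the lowest of them the levels were 10.76, 11.01 and 10.92 in saline and 10.24, 10.91 and 10.89 in CpG-ODN, so that only CpG-ODN 1 lay outside the saline arrays. The fold change was −0.22 ± 0.21 (SE), with an interval from −0.70 to 0.27. It was 0.003 without CpG-ODN 1 and −0.33 without CpG-ODN 2. PSMC6 showed the opposite shape on its dimmer probe, at 8.98, 8.68 and 8.48 in saline and 9.58, 8.78 and 8.60 in CpG-ODN. Its fold change of 0.28 ± 0.27 (SE), with an interval from −0.32 to 0.87, was the highest of all members. It was −0.02 without CpG-ODN 1 and 0.47 without CpG-ODN 3, and the brighter probe gave 0.02. PSMC2 and PSMC3 lay at 0.05 and −0.03.

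The base subunits that are not ATPases lay on both sides of saline, with a median of −0.02 over 4 probes. PSMD1 and PSMD2, the large scaffold proteins of the base, lay at 0.16 and −0.07. PSMD4, a receptor for ubiquitin chains, gave −0.09 on 1 probe and 0.03 on the other. On the first its levels were 11.75, 12.11 and 11.83 in saline and 11.24, 12.08 and 12.08 in CpG-ODN, and on the second 11.14, 11.38 and 11.16 in saline and 10.73, 11.52 and 11.51 in CpG-ODN. CpG-ODN 1 was the lowest array on both probes.

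The lid had a median of −0.12 over 7 probes, 3 higher and 4 lower, with 0 called. With 1 probe per gene, the brightest, its median over 6 genes was 0.02, so that median rests on PSMD6 counting by 2 probes. PSMD14, the deubiquitinase of the lid, lay at 12.15, 11.94 and 12.03 in saline and at 12.63, 11.99 and 11.97 in CpG-ODN, a fold change of 0.16 ± 0.21 (SE). CpG-ODN 1 alone was high. PSMD12 was also highest there, with CpG-ODN 3 just above the saline arrays, at 11.001, 10.94 and 10.85 in saline and 11.44, 10.94 and 11.05 in CpG-ODN, with a fold change of 0.21 ± 0.18 (SE) and an interval from −0.20 to 0.62. Without CpG-ODN 1 the fold change was 0.07.

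PSMD3, another structural subunit of the lid, was high on CpG-ODN 2 instead, with 8.11, 8.27 and 8.35 in saline and 8.17, 8.83 and 8.41 in CpG-ODN, a fold change of 0.23 ± 0.20 (SE), with an interval from −0.23 to 0.68. It was 0.05 without that array and 0.38 without CpG-ODN 1. PSMD6 had a lower mean on both of its probes, with a fold change of −0.12 on the dimmer probe. On the brighter probe its levels were 12.76, 12.26 and 12.43 in saline and 12.45, 12.18 and 12.24 in CpG-ODN. The fold change of that probe was −0.20 ± 0.19 (SE), with an interval from −0.62 to 0.22. Saline 1 was the high array, and the fold change was −0.06 without it and −0.31 without saline 2. PSMD8 lay at −0.12 and PSMD11, which helps to hold the lid on the core, at −0.14.

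PSMD5, PSMD9 and PSMD10 are chaperones that bind base ATPases during assembly and are not part of the finished particle. PSMD5 had the smallest unadjusted p of all 47 member probes (0.0689 in limma, adjusted p = 1.00). Its log2 level was 9.16, 9.21 and 9.26 in saline and 8.69, 8.74 and 9.11 in CpG-ODN, so that all CpG-ODN arrays lay below all saline arrays, CpG-ODN 3 narrowly. The fold change was −0.36 ± 0.17 (SE), with a 95% interval from −0.75 to 0.03. In that direction the groups were apart for 5.03% of all tested probes and for 1 of the 47 members. With 1 array left out the fold change of PSMD5 was lowest at −0.49 (CpG-ODN 3 omitted) and highest at −0.28 (CpG-ODN 1 omitted), and it was −0.10 with both CpG-ODN 1 and 2 left out, which leaves 1 array to set against saline. PSMD9 lay at 0.002. The 3 probes of PSMD10, also called gankyrin, gave 0.01, 0.15 and −0.15.

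Among the activators, the interferon-inducible pair PSME1 and PSME2 did not differ beyond its spread. PSME1 lay at 12.75, 12.84 and 12.93 in saline and at 12.66, 12.95 and 12.83 in CpG-ODN, a fold change of −0.03 ± 0.16 (SE), with an interval from −0.40 to 0.34. PSME2 lay at 12.11, 11.97 and 11.97 in saline and at 11.84, 12.20 and 11.99 in CpG-ODN, a fold change of −0.01 ± 0.17 (SE), with an interval from −0.38 to 0.37. For both genes CpG-ODN 1 was the lowest and CpG-ODN 2 the highest array, and both intervals lay inside 1.5-fold.

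PSME3, the nuclear relative of this pair, had the reverse order on both of its probes. The first lay at 10.41, 10.59 and 10.48 in saline and at 10.86, 10.28 and 10.48 in CpG-ODN, a fold change of 0.05 ± 0.19 (SE), with an interval from −0.38 to 0.48. The second lay at 10.87, 11.09 and 10.94 in saline and at 11.29, 10.69 and 10.85 in CpG-ODN, a fold change of −0.02 ± 0.20 (SE), with an interval from −0.46 to 0.42. Here CpG-ODN 1 was the highest and CpG-ODN 2 the lowest array. PSME4, which encodes PA200, lay at 11.48, 11.70 and 11.40 in saline and at 11.64, 10.86 and 11.13 in CpG-ODN. Its fold change was −0.32 ± 0.22 (SE), with an interval from −0.81 to 0.18. CpG-ODN 2 and 3 lay below every saline array and CpG-ODN 1 did not. The fold change was −0.53 without CpG-ODN 1 (limma adjusted p = 0.527), −0.14 without CpG-ODN 2 and −0.13 with arrays scaled to equal medians.

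**Figure D3:**
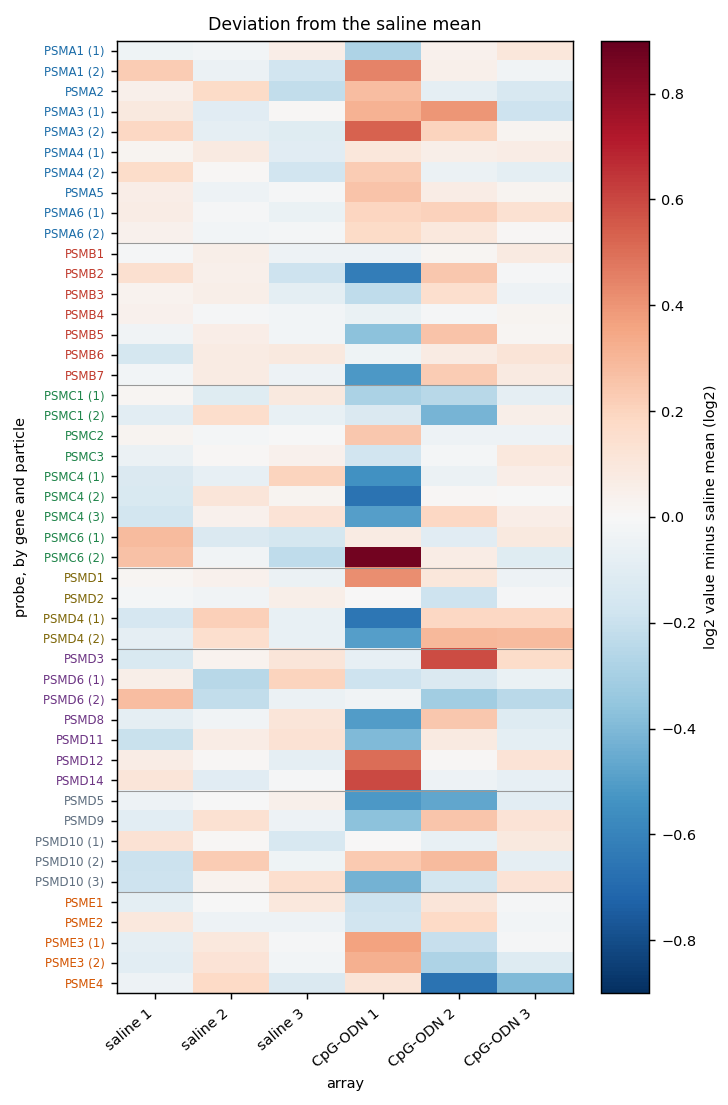
Log2 value minus the saline mean for each of the 47 detected proteasome probes (rows, by particle) on each of the 6 arrays (columns), red above and blue below the saline mean. The CpG-ODN 1 column is red in most of the alpha ring and blue in PSMB2, PSMB3, PSMB5, PSMB7 and the probes of PSMC4 and PSMD4. In that column PSMB1, PSMB4 and PSMB6 lie close to the saline mean.

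Proteasome levels, like those of most probes, varied more among the CpG-ODN arrays than among the saline arrays. The standard deviation over 3 arrays was larger in CpG-ODN than in saline for 39 of 47 members (83.0%), against 74.2% of all tested probes and 80.6% of the 4488 brightest, a share close to that of the members. Its median over the members was 0.24 in CpG-ODN and 0.11 in saline, in log2 units, and over all tested probes it was 0.28 and 0.16. CpG-ODN 1 was the lowest of the 6 arrays for 21 member probes (44.7%) and the highest for 14 (29.8%). The corresponding shares of all tested probes were 28.1% and 24.9%, and those of the 4488 brightest 31.9% and 27.1%. Those 21 probes include the 3 of PSMC4 and the 2 of PSMD4.

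The highs and lows of CpG-ODN 1 fell differently on the parts of the particle. Relative to the saline mean the median of the alpha ring was 0.24 on that array, with 9 of 10 probes above 0, and that of the beta ring was −0.23, with 0 of 7 above. Saline 1 also had 9 of 10 alpha-ring probes above 0, at a median of 0.06, and CpG-ODN 2 had 8 of 10. Of all tested probes 47.9% lay above 0 on CpG-ODN 1, 49.9% on saline 1 and 49.7% on CpG-ODN 2. On CpG-ODN 1 the 3 catalytic subunits had a median of −0.37, the base ATPases −0.17 and the other base subunits −0.25. The chaperones lay at −0.37 on CpG-ODN 1, the lid at −0.07 and the activators at 0.12. The median of all 47 members on CpG-ODN 1 was −0.05 and that of all tested probes −0.02. With arrays scaled to equal medians the CpG-ODN 1 medians of these 7 parts all lay above 0. The alpha ring at 0.79 still exceeded the beta ring at 0.38.

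On CpG-ODN 2 the alpha ring lay at 0.06 and the beta ring at 0.15, and on CpG-ODN 3 both lay at 0.02. CpG-ODN 2 was the lowest array for 7 member probes (14.9%) and CpG-ODN 3 for 1 (2.1%), against 26.8% and 10.9% of all tested probes. CpG-ODN 2 was the highest array for 14 member probes (29.8%), against 26.8% of all tested probes. CpG-ODN 1 also had the highest mean non-normalized intensity (713) and CpG-ODN 2 the lowest (592) of the 6 arrays, against 606 to 650 on the others. The part of that in the differences between rings was not tested.

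**Figure D4:**
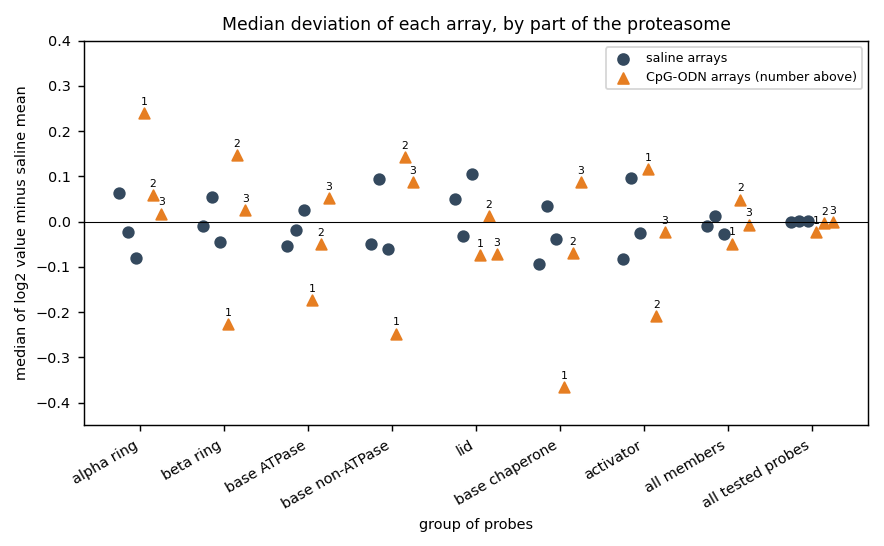
Median of the log2 value minus the saline mean over the probes of each part of the proteasome, for 3 saline arrays (circles) and 3 CpG-ODN arrays (triangles with the array number), beside all 47 members and all 17950 tested probes. CpG-ODN 1 lies at 0.24 for the alpha ring and at −0.23 for the beta ring, while the medians of all tested probes stay close to 0.

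Promoter windows, from 250 bases before to 50 bases after the gene's start, were taken from RefSeq sequences of GRCh38.p14, where 32 of the 36 member genes matched. Of these genes 8 lie on chromosome 14, namely PSMA3, PSMA6, PSMB5, PSMB11, PSMC1, PSMC6, PSME1 and PSME2, and 5 on chromosome 17. The antioxidant response element core, TGACNNNGC or TGAGNNNGC on either strand, is the kind of site that the transcription factor NFE2L1 is known to bind in proteasome promoters. It was found in 16 of the 32 windows (50%) and in 29.4% of 27305 promoters of that length. The interferon-stimulated response element core, GAAA, any 2 bases and GAAA on either strand, was found in 4 windows (12.5%, against 3.65% of all promoters), those of PSME1, PSME2, PSMA4 and PSMB4. The letters TTCNNNGAA of a STAT site were in 6 windows (18.8%, against 7.94%), and CCAAT was in 14 (43.8%, against 35.6%). These shares were not matched for base content: G and C made up a median of 61.2% of member windows and 58% of all promoters. Matches of different motifs overlapped in PSMA3 (TGAGNNNGC with CCAAT) and in PSMB5 (TGAGNNNGC with TTCNNNGAA). A match describes these letters and does not show that a factor binds. Shown are the interferon-inducible activator pair and the 2 members with a probe whose groups were apart, with both the antioxidant and the interferon element cores in capitals:
PSME1, chr14:24135944-24136243, plus strand: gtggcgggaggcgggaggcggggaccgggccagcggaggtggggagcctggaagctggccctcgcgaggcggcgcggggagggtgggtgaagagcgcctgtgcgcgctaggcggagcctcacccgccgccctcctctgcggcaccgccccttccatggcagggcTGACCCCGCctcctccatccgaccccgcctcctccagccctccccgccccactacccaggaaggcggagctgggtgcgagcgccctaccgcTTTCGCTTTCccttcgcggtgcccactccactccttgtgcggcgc
PSME2, chr14:24146561-24146860, minus strand: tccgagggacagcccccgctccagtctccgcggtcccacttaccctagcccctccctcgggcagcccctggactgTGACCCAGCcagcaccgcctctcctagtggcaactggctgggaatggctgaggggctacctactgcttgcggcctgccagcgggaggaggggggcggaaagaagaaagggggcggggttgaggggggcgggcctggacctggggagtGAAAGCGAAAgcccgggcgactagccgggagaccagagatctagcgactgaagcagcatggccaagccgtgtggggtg
PSMA6, chr14:35292067-35292366, plus strand: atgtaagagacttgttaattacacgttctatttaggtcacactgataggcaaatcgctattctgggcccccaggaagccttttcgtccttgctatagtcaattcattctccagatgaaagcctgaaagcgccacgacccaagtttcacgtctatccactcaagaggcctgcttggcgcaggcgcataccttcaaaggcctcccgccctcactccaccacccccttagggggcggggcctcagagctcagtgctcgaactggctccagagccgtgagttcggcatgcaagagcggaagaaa
PSMD5, chr9:120842873-120843172, minus strand: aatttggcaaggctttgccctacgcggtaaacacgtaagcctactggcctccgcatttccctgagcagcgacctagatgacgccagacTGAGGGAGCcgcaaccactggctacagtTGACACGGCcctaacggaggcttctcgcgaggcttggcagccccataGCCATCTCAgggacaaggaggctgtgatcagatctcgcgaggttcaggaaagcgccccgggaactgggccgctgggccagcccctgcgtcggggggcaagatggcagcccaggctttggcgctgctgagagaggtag

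Counted from the gene's start, PSME1 held the interferon core at position 6 on the minus strand and an antioxidant core at −86. PSME2 held them at −28 and −175. The PSMD5 window held 3 antioxidant cores, at −162, −134 and −87, and the PSMA6 window held neither motif. The fold changes of PSME1 and PSME2, whose windows hold the interferon core, were −0.03 and −0.01, as given above. PSMA4 and PSMB4, whose windows also hold it, lay at 0.07 and 0.03 (PSMA4 probes) and at −0.02 (PSMB4). A link between a match and a fold change was not tested.

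Other genes of the pathway also gave 0 calls. Of 33 genes listed as partners (assembly factors, ubiquitin shuttles, deubiquitinases, ubiquitin genes and regulators of proteasome transcription) 27 had a tested probe. Of their 38 probes 20 had a higher and 18 a lower mean in CpG-ODN, with a median of 0.03. Of all tested probes 51.9% had a lower mean, with a median of −0.01. Only 1 of the 38 had an unadjusted p under 0.05 in limma, against 3.58% of all tested probes. It was a probe of UBQLN1, a shuttle that carries ubiquitinated proteins to the proteasome, at 0.45 ± 0.17 (SE, limma adjusted p = 1.00). The other 2 probes of UBQLN1 gave −0.16 and −0.15. POMP, the maturation factor of the core, lay at 0.10, PSMG1 at 0.12 and 0.14, and NFE2L1 at −0.04.

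The inducible counterparts of the catalytic subunits showed 0 called probes. PSMB9, which replaces PSMB6, had 1 probe that was above background on all 3 saline arrays and on 0 of CpG-ODN, and another that was so on 0 of 6. The first was tested only through its saline arrays, so no fold or p is given for it. The 4 probes of PSMB8, which replaces PSMB5, lay between −0.20 and 0.40 with intervals that held 0, and PSMB10, which replaces PSMB7, lay at 0.01.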

How the data were processed

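Samples of IGROV-1 RNA were grouped by their titles into saline and CpG-ODN, with 3 arrays in each. The main table holds linear intensities that the authors deposited without normalization or background subtraction, per the file headers. Beside each stands a deposited detection p-value, per the file headers. BeadStudio is named, per the submitters' processing notes, with no version. A second deposited table held normalized linear intensities by an unstated method. Quantile normalization of the main table differed from it by at most 0.0222 log2 units.

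Intensities were background-corrected and quantile normalized with neqc (limma 3.58.1, R 4.3.3), where detection p-values stood in for negative controls and the offset was 16, which shrinks changes in dim probes. A probe was kept where its detection p was under 0.05 on 3 or more of the 6 arrays, 17950 of 48803. All kept probes were fitted with lmFit and eBayes (group as the sole term, two-sided tests, Benjamini-Hochberg over all kept probes). Each member probe kept its own value. Probes were named from the platform annotation through RefSeq gene numbers (28098 with 1 symbol, 13 with several, 20692 with none), and 0 symbols changed. The fold change, SE and 95% interval are given for the 5 member probes of smallest unadjusted p in each direction, the catalytic subunits and the activators. Other members were singled out after their values were seen. Members and lists were chosen with earlier results of these data known, so lists are described by counts and medians without a test. The fit was tested on simulated data. Alternatives covered normalization, background, offset, the deposited table, filters, probe summary, replicate block, array weights, variance trend and left-out arrays. The number of arrays limits the precision, and no chip or scan date was used.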

Additional observations from a re-analysis of the deposited data

How the results depend on the processing

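In all 18 alternatives limma called 0 proteasome probes and 0 of all probes tested. At an unadjusted p under 0.05 it gave at most 1 of the 34 to 54 members tested in each. Of all probes it gave between 306 and 2903, against 643 of 17950 in the main fit. The member was PSMD5 without background correction, with the deposited normalized values and without a detection filter. It was also PSMD5 with the stricter detection filter and without CpG-ODN 3. With array weights and without CpG-ODN 1 it was PSME4. The weights were 0.257, 0.349 and 4.71 for CpG-ODN 1, 2 and 3, so the weighted fit rests mostly on 1 CpG-ODN array. Over the same 17950 probes the count was 306 with scaling to equal medians and 2903 with array weights. It was from 366 to 424 with 1 saline array left out, 1646 without CpG-ODN 1 and 997 without CpG-ODN 3. Other settings tested other numbers. The count was 2051 of 48803 without a detection filter and 424 of 11897 with the stricter detection filter. Of 11040 genes it was 395 with the brightest and 377 with the mean probe per gene. With the replicate block there were 0 called members and 893 probes at that level; deviations of arrays with the same number correlated at 0.341, 0.0499 and 0.126, which does not settle a pairing.

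Scaling to equal medians moved the median of all probes to 0.06 and the medians of the members to 0.22 for the whole set, 0.37 for the alpha ring, 0.26 for the beta ring, 0.17 for base ATPases, 0.18 for other base subunits, 0.054 for the lid and 0.18 for activators. The intervals of 42 members then lay inside 2-fold, and those of 46 without saline 1, CpG-ODN 2 or CpG-ODN 3. The lid median was −0.037 without a detection filter, 0.018 with the brightest or the mean probe per gene and −0.021 with array weights, and that of base ATPases 0.052 with CpG-ODN 1 and 2 both left out. With 1 array left out the medians ran from −0.036 to 0.037 for the whole set, 0.057 to 0.15 for the alpha ring, −0.14 to 0.094 for the beta ring, −0.17 to −0.0085 for base ATPases, −0.097 to 0.11 for other base subunits, −0.13 to −0.0045 for the lid, −0.12 to 0.014 for chaperones and −0.11 to 0.0035 for activators.

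Of the values of 17 single probes, all uncalled, 30 changed sign and 271 did not. With scaling to equal medians PSMC1 lay at 0.070, PSMD6 at 0.054, PSMB5 at 0.26, PSMB7 at 0.23, PSME1 at 0.24, PSME2 at 0.22 and the second PSME3 probe at 0.14. With array weights PSMC6 lay at −0.054, PSMB5 at 0.0035, PSMB7 at 0.046 and the first PSME3 probe at −0.021. With CpG-ODN 1 and 2 both left out PSMC6 lay at −0.11, PSMB5 at 0.017, PSMB7 at 0.080 and the first PSME3 probe at −0.0096. The mean of its probes put PSME3 at 0.012. With 1 array left out PSMC6 ran from −0.021 to 0.47, PSMC4 from −0.33 to 0.0030, PSMB5 from −0.18 to 0.14, PSMB6 from −0.031 to 0.094, PSMB7 from −0.22 to 0.15, PSME1 from −0.097 to 0.051, PSME2 from −0.099 to 0.080 and the PSME3 probes from −0.11 to 0.18 and from −0.20 to 0.10. The cause was not tested.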
